A study of Homo sapiens with 4 samples.

Results

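The D cyclins (CCND1, CCND2 and CCND3) and the CDK inhibitors (CDKN1A, CDKN1B, CDKN1C, CDKN2A, CDKN2B, CDKN2C and CDKN2D) were examined for m6A sites in C643 cells, a human cell line derived from an anaplastic thyroid carcinoma. A listed site was counted when it lay in an annotated exon of 1 of these 10 genes on the same strand. By this rule the genes held 23 of the 18789 listed sites. The sites came from miCLIP2, in which an m6A antibody is UV-crosslinked to fragmented polyadenylated RNA and the crosslink leaves a cDNA truncation next to the modified base. The single group, wild-type C643 cells grown untreated, had 3 biological replicates in 4 libraries, because replicate 1 was sequenced as 2 technical libraries. The list pooled the replicates and gave 1 position and 1 prediction score per site, so no spread between replicates and no read depth per site was known, and no knockout or treated cells were compared.

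D cyclins bind CDK4 and CDK6 in G1 phase, and the active complexes phosphorylate the retinoblastoma protein and so release E2F transcription factors. The INK4 inhibitors (CDKN2A to CDKN2D) bind CDK4 and CDK6 themselves, whereas the CIP/KIP inhibitors (CDKN1A to CDKN1C) bind cyclin-CDK complexes more broadly. m6A is placed on mRNA mainly by the METTL3-METTL14 complex at DRACH motifs (D stands for A, G or T, R for A or G, H for A, C or T, and the A is methylated). It is enriched in long exons and around stop codons, and reader proteins that bind it affect mRNA decay and translation.

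Of the 10 genes, 5 carried sites (50%, 95% Wilson interval 23.7 to 76.3), against 19.6% of the 20046 protein-coding genes. The 20046 are all annotated ones, expressed in these cells or not, so the 2 shares do not compare expressed genes. CDKN2C held 9 sites, CDKN1A 5, CCND1 4, CDKN2D 3 and CCND3 2. No site was listed in CCND2, CDKN1B, CDKN1C, CDKN2A or CDKN2B. RNA levels were not analysed here, so a gene without a site could not be told apart from a gene with too few reads. None of the 23 sites lay in an exon of a further gene on the same strand.

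The sequences below carry the findings and are shown as 21 nt of GRCh38 read 5′ to 3′ on the strand of the gene, with the pentamer around the listed A in capitals. Sites are numbered along each transcript. They are the highest-scoring site of each gene, the sites outside DRACH and the site closest to a stop codon. The CCND3 sequence is the spliced form, so its bases ahead of exon 5 come from the exon before, outside the coordinates given.
CCND1, site 3, chr11:69651265-69651285, plus strand: cgggacgtGGACAtctgaggg
CCND1, site 4, chr11:69654200-69654220, plus strand: gccttgagGGACGctttgtct
CCND3, site 2, chr6:41936096-41936116, minus strand, as spliced: actgaagtGGACTgcctgcgg
CDKN1A, site 5, chr6:36687156-36687176, plus strand: actggcctGGACTgttttctc
CDKN2C, site 8, chr1:50973958-50973978, plus strand: gaaagaccGAACTggtttcgc
CDKN2D, site 1, chr19:10567142-10567162, minus strand: catcgcagGGACGccaggggt
CDKN2D, site 3, chr19:10566842-10566862, minus strand: ggtgtgttGGACAgagaaggg

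**Figure D1:**
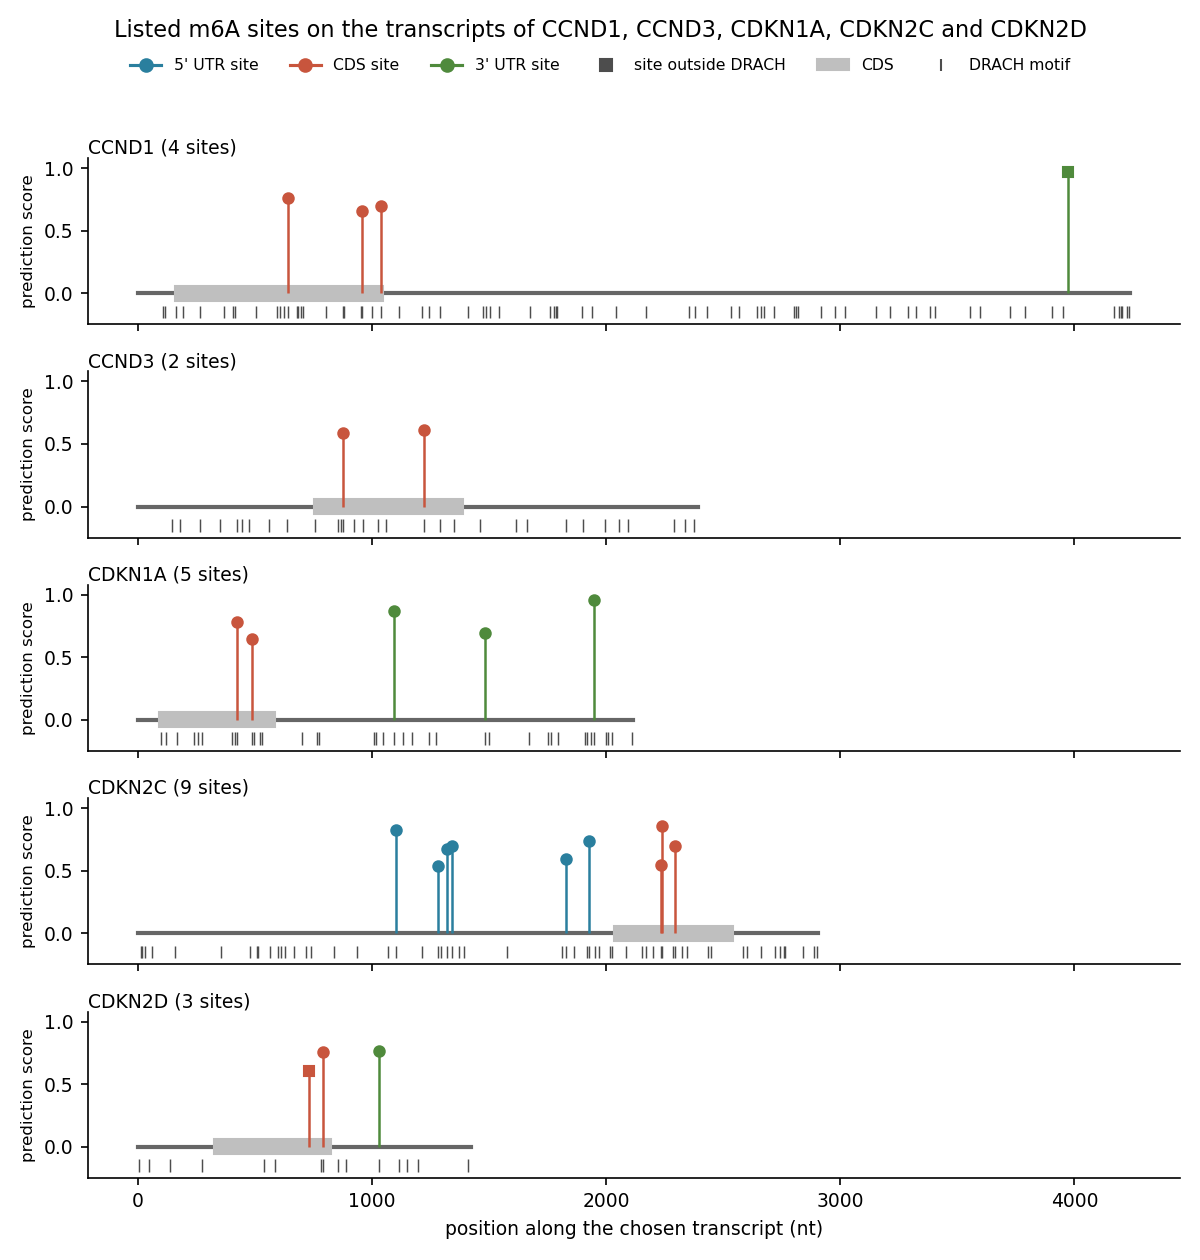
Listed m6A sites of CCND1, CCND3, CDKN1A, CDKN2C and CDKN2D along each gene's chosen spliced transcript. The x axis is the position in nt, the height of each stem is the prediction score (a fraction without unit), the grey block is the coding sequence (CDS), ticks under the line are DRACH motifs, and squares mark sites outside DRACH. CDKN2C held 6 sites ahead of its coding sequence, and CCND1 had 1 isolated site near its 3′ end.

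CCND1 encodes cyclin D1, and its gene spans 69641156 to 69654474 on the plus strand of chromosome 11. On transcript CCND1-201, which has 5 exons, 3 of the 4 sites were coding and 1 was in the 3′ UTR. The first coding site was in exon 3 at position 69643903, 400 nt upstream of the stop codon, in the pentamer GAACA, with a score of 0.758. The other coding sites were in exon 5, both in GGAC contexts close to the stop. The GGACC site at 69651194 lay 86 nt upstream of the stop codon and had a score of 0.656. The GGACA site at 69651275 lay 5 nt upstream of the stop codon, in codon 294, and had a score of 0.7001. Of the 23 sites it was the closest to a stop codon, and its printed sequence holds the stop codon tga shortly after the pentamer.

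Site 4 of CCND1 stood far from the others. It lay at 69654210, 2930 nt past the stop codon and 264 nt from the transcript end, 2935 nt from the previous site. Its score of 0.967 was higher than that of 98.99% of all listed sites. Its pentamer GGACG is outside DRACH because the last base is G, and the 735 listed sites with this pentamer had a median score of 0.716. The 3′ UTR of CCND1 is 3192 nt long and holds 51 DRACH motifs, none of which was listed. CCND1-201 also holds 3 GGACT motifs, the most frequent pentamer of the list, and none of these was listed either. Over the whole transcript 3 of 75 DRACH motifs were listed (4%, Wilson interval 1.37 to 11.1), against 7.18% over all transcripts with sites.

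CCND3 encodes cyclin D3 on the minus strand of chromosome 6 (41934934 to 42050357). Both of its sites were coding and both scored low. The AAACT site at 41940415, in exon 2 of the 5 exons of CCND3-215, lay 508 nt upstream of the stop codon and scored 0.592. Of the list, 16.0% of sites had a lower score. The GGACT site at 41936106 lay 164 nt upstream of the stop codon and scored 0.610, against a median of 0.833 for the 4072 listed GGACT sites. Its A is the second base of exon 5, so only 1 nt separates it from the exon edge. The genomic sequence around it therefore runs into the intron (tgttcccaGGACTgcctgcgg), and 14 of 21 bases match the spliced form printed above, with the pentamer the same in both. CCND3-215 is 1 of 23 annotated transcripts of the gene, and each site was coding in 8 of them.

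CCND2, which encodes cyclin D2, is on chromosome 12 (4269771 to 4305353, plus strand). Its chosen transcript is 6849 nt long and has a 3′ UTR of 5341 nt. None of its 113 DRACH motifs, 7 of them GGACT, was listed, which gives an upper Wilson limit of 3.29%. CCND2 thus had the most motifs of the 10 genes and no site.

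CDKN1A encodes p21, a CIP/KIP inhibitor of cyclin-CDK complexes, and lies on the plus strand of chromosome 6 (36676460 to 36687337). Of its 5 sites (38.8% of the genes with sites held at least 5), 2 were coding and 3 were in the 3′ UTR. Both coding sites, in exon 2 of 3, had the pentamer GGACC. The one at 36684436 lay 158 nt upstream of the stop codon and scored 0.785. The one at 36684500 lay 94 nt upstream and scored 0.644. The 3′ UTR sites were spread over the last exon rather than gathered at the stop codon.

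In the 3′ UTR of CDKN1A the site nearest the stop was an AAACT site at 36686309, 511 nt past it, with a score of 0.867. A GGACT site at 36686700, 902 nt past the stop codon, scored 0.697. The last, a GGACT site at 36687166, lay 1368 nt past the stop codon and 166 nt from the transcript end, and its score of 0.956 was higher than that of 98.1% of the list. These are the only GGACT motifs of CDKN1A-201, and both were listed. Of its 38 DRACH motifs 5 were listed (13.2%, Wilson interval 5.75 to 27.3). The highest-scoring site of CDKN1A and that of CCND1 both lay near the 3′ end of the transcript, past most of a 3′ UTR. The AAACT site of CDKN1A, which scored above 80.5% of the list, lay 1023 nt from the transcript end.

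CDKN1B (p27) and CDKN1C (p57), the other CIP/KIP inhibitors, had no listed site. CDKN1B lies on chromosome 12 (12685498 to 12722369, plus strand), and none of the 82 DRACH motifs of its chosen transcript was listed (upper Wilson limit 4.48%). CDKN1C lies on chromosome 11 (2883213 to 2885775, minus strand), and none of its 26 DRACH motifs was listed (upper limit 12.9%). Each has a single GGACT motif. On its shorter canonical transcript CDKN1B has 40 DRACH motifs and an upper limit of 8.76%.

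CDKN2C encodes p18, an INK4 inhibitor, on the plus strand of chromosome 1 (50960745 to 50974634), and it held the most sites of the group. Its 9 sites exceeded the number in 84.2% of the 3704 genes with sites, and 15.8% of these genes held at least 9. On transcript CDKN2C-201 6 of the 9 sites were in the 5′ UTR and 3 in the coding sequence. Its 3′ UTR, 363 nt long with 10 DRACH motifs, had none. Of 59 DRACH motifs 9 were listed (15.3%, Wilson interval 8.24 to 26.5), and of 6 GGACT motifs 3 were listed. On the shorter canonical transcript CDKN2C-202, 3 of 24 DRACH motifs were listed, and no interval was taken for this share.

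The 6 upstream sites of CDKN2C are shown because few listed sites lie in a 5′ UTR. They were picked for printing after their positions were seen.
CDKN2C, site 1, chr1:50968970-50968990, plus strand: tacaaaagAAACTgtcactgg
CDKN2C, site 2, chr1:50969148-50969168, plus strand: cggcgaccGGACTggctgccc
CDKN2C, site 3, chr1:50969188-50969208, plus strand: cctactcaGAACTtggcctac
CDKN2C, site 4, chr1:50969209-50969229, plus strand: gtttcccaGGACTctccccat
CDKN2C, site 5, chr1:50969694-50969714, plus strand: gggccaccGAACTgctactcc
CDKN2C, site 6, chr1:50969793-50969813, plus strand: aggacccaGGACTatcccttc

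All 6 of these pentamers end in ACT and fit DRACH. In order, the sites lay 931, 753, 713, 692, 207 and 108 nt upstream of the start codon. Their scores were 0.822, 0.537, 0.677, 0.698, 0.594 and 0.737, so the most upstream site scored highest and its neighbour lowest. The GGACT sites among them scored below the GGACT median of 0.833. Sites 2, 3 and 4 formed a cluster with spacings of 40 and 21 nt.

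All 6 lay in 1 long exon, exon 2 of CDKN2C-201 (50967936 to 50969899), which is also exon 1 of CDKN2C-203 from 50968706 onwards. The 5′ UTR of CDKN2C-201 is 2034 nt long and holds 37 of the 59 DRACH motifs. The canonical transcript CDKN2C-202 starts at 50970245, downstream of all 6 sites, and has a 5′ UTR of 124 nt. The same start codon at 50970369 serves all 3 annotated transcripts. The 6 sites are thus 5′ UTR sites of the longer transcripts and lie in no exon of the canonical one. Transcript usage in C643 cells was not measured in the list.

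Such a number of 5′ UTR sites was uncommon. Of the 3623 coding genes with sites, 7.2% (261 genes) had any site in the 5′ UTR, with a median of 1 such site per gene. STK11, with 9, SNX33, with 8, and C6orf47, HCFC1 and ST3GAL2, with 7 each, were the 5 genes above CDKN2C, and WDR24 also had 6.

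The 3 coding sites of CDKN2C were in exon 4 and were present in all 3 transcripts. The AGACC site at 50973963 and the GAACT site at 50973968 were 5 nt apart, the closest neighbours among the 23 sites, and lay 305 and 300 nt upstream of the stop codon. Their scores were 0.543 and 0.858, so adjacent motifs differed widely. Their sequences overlap, and the one printed for site 8 holds both pentamers. The last, an AGACT site at 50974025, lay 243 nt upstream of the stop codon and scored 0.696.

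CDKN2D encodes p19, an INK4 inhibitor like CDKN2C, on the minus strand of chromosome 19 (10566460 to 10569059). All 3 of its sites lay in exon 2, the last exon of CDKN2D-202, and within 208 nt of the stop codon. The coding site at 10567152 was in GGACG, outside DRACH, 92 nt upstream of the stop codon, with a score of 0.601. The coding site at 10567092 was in GGACA, 32 nt upstream, with a score of 0.757. The 3′ UTR site at 10566852 was also in GGACA, 208 nt past the stop codon, with a score of 0.766. CDKN2D-202 holds no GGACT motif and 15 DRACH motifs, of which 2 were listed (13.3%, Wilson interval 3.74 to 37.9).

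CDKN2A (p16 and, in another reading frame, ARF) and CDKN2B (p15) lie next to each other on the minus strand of chromosome 9 and had no listed site. CDKN2A spans 21967752 to 21995301, and its chosen transcript CDKN2A-214, the longest at 1052 nt, encodes ARF and not p16. None of the 14 DRACH motifs of CDKN2A-214 was listed (upper Wilson limit 21.5%). The canonical transcript CDKN2A-201, which encodes p16, has 12 DRACH motifs, none of them listed (upper limit 24.2%). CDKN2B spans 22002903 to 22009305 and has 68 DRACH motifs, 4 of them GGACT, with an upper limit of 5.35%. The 5 genes without sites together have 303 DRACH motifs and 13 GGACT motifs.

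**Figure D2:**
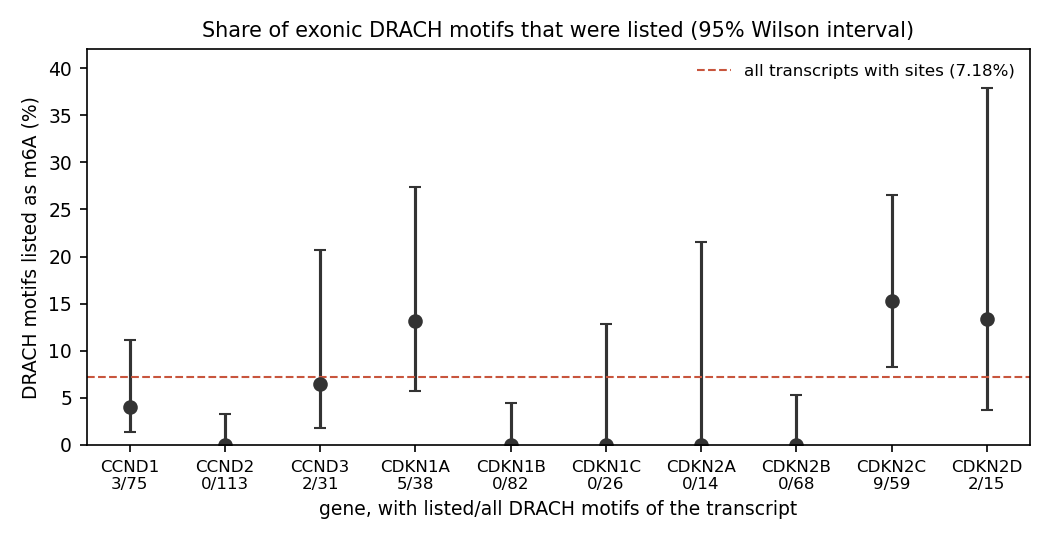
Percentage of the DRACH motifs in each gene's chosen transcript that were listed as m6A sites, with 95% Wilson intervals over motifs and listed/all counts under each gene. The dashed line is the 7.18% over all transcripts with sites, and it applies only to the genes with sites. It lies inside the intervals of CCND1, CCND3, CDKN1A and CDKN2D and below that of CDKN2C. The CDKN2C interval holds for CDKN2C-201 only. On its canonical transcript CDKN2C-202, 3 of 24 motifs were listed, which is not drawn.

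By sequence, the intervals of the 23 sites included the shares of the list. DRACH held 21 of 23 (91.3%, Wilson interval 73.2 to 97.6), against 88.7% of all listed sites. GGACT was the most frequent of their 9 pentamers with 6 sites (26.1%, interval 12.5 to 46.5), against 21.7%. AAACT, as in the first CCND3 site, and 3 further pentamers had 3 sites each. In the transcripts of the genes with sites, 6 of 13 GGACT motifs were listed (46.2%, interval 23.2 to 70.9), against 25.5% over all transcripts with sites.

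By position, fewer of the 23 sites than of the list were in a 3′ UTR and more were in a 5′ UTR, and CDKN2C weighed heavily in both shares. In the 3′ UTR lay 5 of 23 sites (21.7%, Wilson interval 9.66 to 41.9), against 53.2% of the list. The coding sequence held 12 (52.2%, interval 33.0 to 70.8), and this interval included the 37.7% of the list. The 5′ UTR held 6 (26.1%, interval 12.5 to 46.5), against 2.32%. These shares of the list are over all 18789 sites, some of which lay on no coding transcript, whereas all 23 sites did. The 5′ UTR share rested on CDKN2C and was 0% without this gene or on canonical transcripts. Without CDKN2C the 3′ UTR share was 35.7% (5 of 14, interval 16.3 to 61.2), and this interval included the share of the list. In the last exon lay 13 of 23 sites (56.5%, interval 36.8 to 74.4), against 76.1% of the sites on coding transcripts. The 6 sites in the 5′ UTR of CDKN2C made up most of those outside it, and this share was not recomputed without that gene. Sites of 1 transcript share its RNA and its depth, so these intervals, taken over sites, do not cover differences between genes or cultures.

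**Figure D3:**
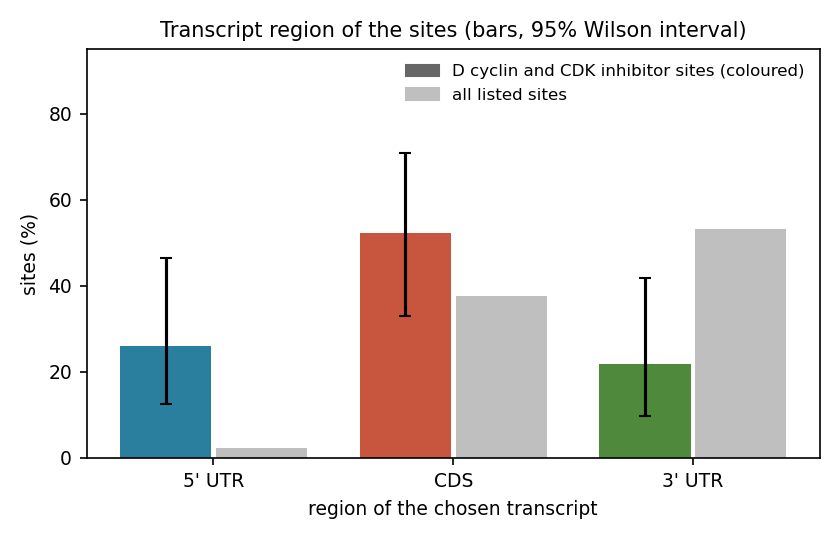
Percentage of sites in each region of the chosen transcript for the 23 D cyclin and CDK inhibitor sites (coloured bars, 95% Wilson interval over sites) and for all 18789 listed sites (grey bars). The 3′ UTR held 21.7% of the former and 53.2% of the latter, and all 6 of the 5′ UTR sites were those of CDKN2C.

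For proximity to the stop codon the interval again included the share of the list. Within 200 nt of it lay 7 of 23 sites (30.4%, Wilson interval 15.6 to 50.9), against 31.2% of the sites on coding transcripts. Without CDKN2C, none of whose sites lay in this window, the share was 50% (7 of 14, interval 26.8 to 73.2). The 7 sites were 2 sites of CCND1, 1 of CCND3, 2 of CDKN1A and 2 of CDKN2D, and all of them were on the coding side.

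DRACH motifs were also counted by region in the 5 genes with sites. In the 3′ UTR 4 of 104 were listed (3.85%, Wilson interval 1.51 to 9.47), against 8.58% over all coding transcripts with sites. In the coding sequence 11 of 62 were listed (17.7%, interval 10.2 to 29.04), against 6.34%, and in the 5′ UTR 6 of 52 (11.5%, interval 5.40 to 22.97), against 3.15%. The interval of the 3′ UTR share included that of the other transcripts. By gene, 0 of 51 such motifs were listed in CCND1, 0 of 11 in CCND3, 3 of 25 in CDKN1A, 0 of 10 in CDKN2C and 1 of 7 in CDKN2D. In the coding sequence the counts were 3 of 22 in CCND1, 2 of 11 in CCND3 and 2 of 13 in CDKN1A. They were 3 of 12 in CDKN2C and 1 of 4 in CDKN2D. In the 5′ UTR all 6 listed motifs were among the 37 of CDKN2C, and they lie in no exon of its canonical transcript. The shares by region were not recomputed with a gene left out. Each transcript of the 5 genes was counted because it had at least 1 site, which raises the share of a short transcript with few motifs.

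Several coding sites lay close to exon junctions, where m6A is generally sparse. Of the 12 coding sites, 7 were at most 100 nt from a junction (58.3%, Wilson interval 32.0 to 80.7), against 29.8% of coding sites on spliced transcripts. They were the sites at 71 and 76 nt in CCND1, at 45 and 1 nt in CCND3, at 46 nt in CDKN1A and at 70 and 75 nt in CDKN2C. All genes with sites, CDKN2D included, have 42 coding DRACH motifs this near to a junction. Of these, 7 were in the list (16.7%, interval 8.32 to 30.6), against 2.41% over spliced transcripts with sites. Farther from junctions the share was 4 of 20 (20%, interval 8.07 to 41.6), against 18.1%. These transcripts too were counted because they had at least 1 site. The motif shares by junction distance were chosen after seeing the data and were not recomputed with a gene left out. With a window of 50 nt, 3 of the 12 coding sites remained (25%, interval 8.89 to 53.2), both of CCND3 and 1 of CDKN1A, against 17.1% of coding sites on spliced transcripts. The share within 100 nt had an interval that included 29.8% when CCND1 (55.6%, 26.7 to 81.1), CCND3 (50%, 23.7 to 76.3) or CDKN2C (55.6%, 26.7 to 81.1) was left out. At a score of at least 0.7 it was 2 of 5 (40%, 11.8 to 76.9).

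Neighbouring sites were mostly well apart. The 18 neighbouring pairs had a median distance of 209 nt, and 3 pairs, all in CDKN2C, were at most 50 nt apart (16.7%, Wilson interval 5.84 to 39.2), against 32.5% of neighbouring pairs in the list.

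The prediction score runs from 0 to 1 and states how strongly the classifier m6Aboost favoured m6A at a position, with 0.50 the lowest listed. It used the sequence, the transcript region and the miCLIP2 signal as inputs, so it is not independent of motif or region and does not measure the modified fraction of the RNA. The 23 sites had a median score of 0.698 (quartiles 0.627 and 0.776), and the list had a median of 0.754 (quartiles 0.640 and 0.847). At least 0.7 was reached by 11 of 23 (47.8%, Wilson interval 29.2 to 67.0), against 62.9% of the list. Within their own pentamer, 15 of the 23 sites scored below the median of the list, and so did 5 of the 6 GGACT sites, with the last CDKN1A site as the exception.

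Scores also varied between regions. The 5 sites in 3′ UTRs had a median of 0.867, against 0.799 for all 3′ UTR sites. The 12 coding sites had a median of 0.676, against 0.707, and the 6 sites in the 5′ UTR of CDKN2C had a median of 0.687, against 0.623. The highest scores overall were those of the most distal sites of CCND1 and CDKN1A.

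**Figure D4:**
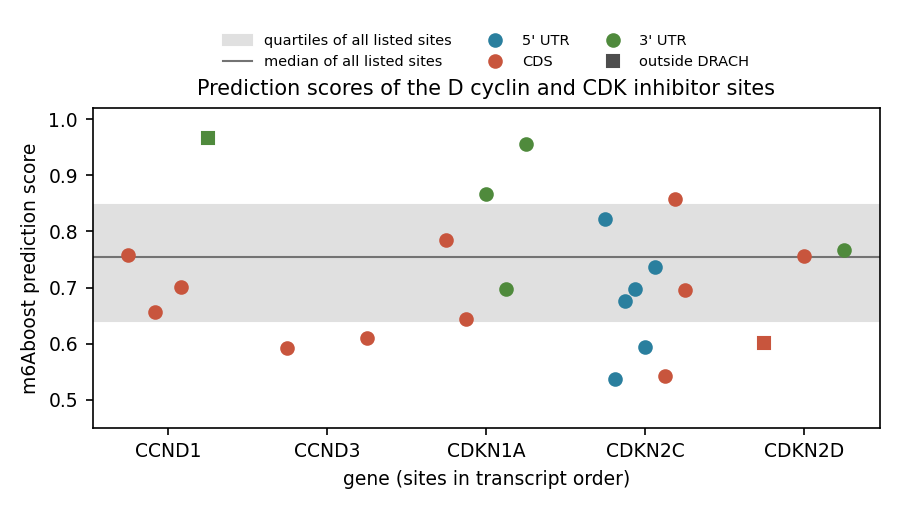
Prediction score (a fraction without unit) of each of the 23 sites, grouped by gene in transcript order and coloured by region, with squares for sites outside DRACH. The line and the band are the median (0.754) and quartiles of all listed sites. Both CCND3 sites lie under the band, as do sites 2, 5 and 7 of CDKN2C and site 1 of CDKN2D. The last sites of CCND1 and CDKN1A lie above it, as do site 3 of CDKN1A and site 8 of CDKN2C.

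The genes around the D cyclins in the cell cycle were counted as well. Of 44 such genes 11 had sites (25%, Wilson interval 14.6 to 39.4), against 19.6% of protein-coding genes, with 60 sites in all. Among the partner kinases and the CDK-activating kinase 1 of 7 had sites. This was CDK4, the main partner of the D cyclins, with 2 sites in its 3′ UTR and a highest score of 0.830. None of the 5 E, A and B cyclins and none of the 3 pocket proteins, the substrates of the D cyclin kinases, had a site. With so few genes per role the Wilson intervals were wide, and that of every role included 19.6%. The interval of the E, A and B cyclins reached 43.4% and that of the pocket proteins 56.1%.

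Of the E2F and DP factors downstream, 3 of 10 had sites, with 15 in all, and E2F1 held 9 of them, 5 coding and 4 in the 3′ UTR. Of the factors that turn over D cyclins or CDK inhibitors, 5 of 12 had sites (Wilson interval 19.3 to 68.0), with 32 in all. Most belonged to FBXO31 and AMBRA1, which both take part in the degradation of cyclin D1. FBXO31 held 14 sites, of which 13 were in the 3′ UTR, with a highest score of 0.941. AMBRA1 held 13, of which 5 were coding and 8 in the 3′ UTR, with a highest score of 0.867. Of the phosphatases and kinases that act on CDKs, 2 of 6 had sites, CDC25B with 6 and PKMYT1 with 5. MDM2, a ubiquitin ligase, had no site. CDK4, CDC25B and PKMYT1 were named after their values were seen. Apart from 2 sites of CUL4A, which lay in an exon of another transcript than the chosen one, all 60 were coding or in a 3′ UTR. On chosen transcripts CDKN2C was thus the only gene among the D cyclins, the CDK inhibitors and these 44 genes with 5′ UTR sites.

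**Figure D5:**
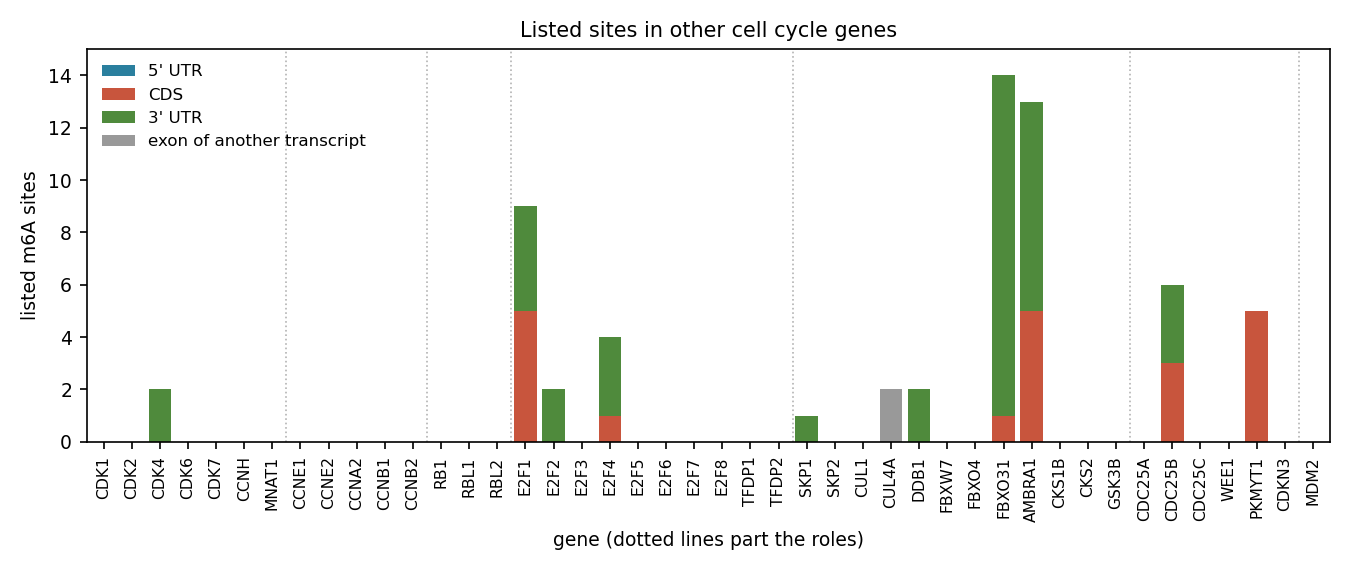
Number of listed m6A sites in each of 44 other cell cycle genes, stacked by region of the chosen transcript, with dotted lines between roles. Sites were present in 11 genes, and FBXO31 (14), AMBRA1 (13) and E2F1 (9) held the most.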

How the data were processed

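The 4 miCLIP2 libraries came from polyadenylated RNA of untreated C643 cells. Per the submitters' processing notes and the study's methods, reads were aligned to GRCh38.p12 with STAR 2.7.3a and deduplicated with UMI-tools 1.0.0, with SAMtools 1.9 and bedtools 2.27.1 also named. Crosslink peaks were called per replicate with PureCLIP, and those found in several replicates were scored by m6Aboost. The deposited site list holds the score as a fraction per site, pooled over replicates by the authors, so no test between samples was possible and intervals cover counting error only.

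All 18789 positions were single bases at an A of the strand given, with no duplicates. Sites were placed on GENCODE release 44 (the authors used an earlier release). For each gene 1 transcript was chosen by spliced length, the longest. Candidates had support level 3 or better, or an unrated one, had annotation level 2 or better and were coding where the gene is. On such transcripts fell 17770 sites. Stop codons count as coding, distances run along the spliced transcript to the first base of the stop codon, and junction distance is the number of nt to the nearest exon edge. All pentamers fitting DRACH in the chosen transcripts were counted. Sequences are from GRCh38. Every site of the 10 genes is described, and of the other cell cycle genes the 3 with the most sites and each role, with 1 gene of the list not reported here. The genes, lists and measures were chosen with earlier results of these data known. Scripts ran in Python 3.11.15 with SciPy 1.17.1 and were tested on simulated sites. Alternatives were canonical transcripts, other windows, a score of at least 0.7, RAC in place of DRACH and leaving out each gene.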

Additional observations from a re-analysis of the deposited data

How the results depend on the processing

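Across 58 alternatives for 10 values, 50 stayed within the 95% interval of the value reported (counts within 1.5 times) and 8 moved. These intervals are wide. A score of at least 0.7 left 11 of the 23 sites, 4 of the 5 genes (CCND3 dropped out) and 4.59% of the DRACH motifs. With RAC (R for A or G) in place of DRACH, 100% of the sites fitted. A window of 400 nt around the stop codon held 52.2% of the sites, and 44.4% of neighbouring pairs were at most 100 nt apart. The 5′ UTR share was 0% on canonical transcripts and 0% without CDKN2C, and 25% of the coding sites lay within 50 nt of a junction. The 5′ UTR and junction shares were added after seeing the data. The 3′ UTR share was 11.1% without CDKN1A, 35.7% without CDKN2C and 36.4% (interval 15.2 to 64.6) at a score of at least 0.7, where the list had 61.9%. The share within 200 nt of the stop codon was 50% without CDKN2C, and that of close neighbours was 8.33% on canonical transcripts. No paired analysis was possible because the list pools the replicates, and for the same reason none could be left out. Depth per site is unknown.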

Other observations

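The stretch of chromosome 9 around CDKN2A and CDKN2B was empty of listed sites on both strands. The nearest site on the left was in RPS6 at 19378495, 2589257 bp from CDKN2A, and the nearest on the right was in TUSC1 at 25677343, 3668038 bp from CDKN2B. The other genes without sites had closer neighbours. For CDKN1C the nearest was in PHLDA2, 42870 bp away, for CDKN1B in DDX47, 107266 bp away, and for CCND2 in DYRK4, 308240 bp away. On their other side the nearest sites were 479422, 794227 and 985059 bp away, in the same order. How often the list has gaps as long as that on chromosome 9 was not counted. Whether CDKN2A and CDKN2B are transcribed or present in these cells was not tested.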
